A study of Danio rerio with 20 samples.

Results

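Binding sites of the retinoic acid receptor Raraa in gastrula embryos given all-trans retinoic acid (atRA) were set against the Raraa sites of untreated embryos at the later 5-somite stage. A site of a group was a region on chromosomes 1 to 25 where a peak of one replicate overlapped a peak of the other by at least 1 bp. The treated gastrula had 29678 such sites and the 5-somite stage had 29853. Merged, they came to 51138 regions, out of 124012 regions in the whole study. The study mapped the binding of Raraa, Hoxb1b, Meis2b and Sox3 in wild-type zebrafish, using chromatin of whole embryos, with 20 ChIP-seq libraries in 10 groups of 2. Immunoprecipitated chromatin was tagged on the beads by the transposase Tn5 (ChIPmentation).

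The treated embryos were wild-type, were exposed to atRA at 0.1 µM when epiboly stood at 30%, and were taken at 80% epiboly, late in gastrulation. The 5-somite embryos, like the control gastrulae at 80% epiboly and the embryos at 24 hours post fertilisation (hpf), were wild-type and untreated. In the labels, the treatment text names 80% epiboly as the time of collection also for the later stages, so the stage was taken from the titles and stage entries. Embryos given atRA and taken at 5 somites were not analysed here. Nothing in the labels says that the 2 libraries of a group came from separate clutches, so p-values measure only the spread between these libraries, which may be technical. Whole embryos were used, so a site held by fewer cells and a site with less receptor per cell cannot be told apart.

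Retinoic acid receptors are nuclear receptors that bind DNA as heterodimers with retinoid X receptors. They can sit on DNA without ligand, where they recruit corepressors, and ligand binding exchanges these for coactivators. In vertebrate embryos retinoic acid made in the trunk mesoderm helps to pattern the hindbrain along its axis and takes part in somite formation. Hox and Meis proteins act together on hindbrain regulatory DNA, and Sox3 is a factor of neural progenitors.

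The libraries differed in depth and in the number of peaks at a given depth, and every share below has to be read beside that. Background, the smallest fragment coverage against which peaks were called in a list, was 2.17 fragments per base in atRA replicate 1 and 0.606 in atRA replicate 2. It was 0.538 and 0.393 in the 5-somite libraries, 0.394 and 0.927 in the control gastrula libraries, and 0.686 and 0.562 at 24 hpf. The lists held 254915 and 59938 peaks with atRA, 109146 and 116351 at 5 somites, 23920 and 131936 in the control gastrula, and 115452 and 112006 at 24 hpf. Control replicate 1 and 5-somite replicate 2 had nearly the same background, yet 23920 and 116351 peaks. At a q of at most 1e-05 these 2 lists held 3621 and 23856. Depth is thus not the only difference between the libraries. Total reads per library are unknown.

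With all deposited peaks, a minority of the 5-somite sites were sites of the treated gastrula. Of the 29853 5-somite sites, 8347 (28.0%) overlapped a site of the treated gastrula. Nearly as many, 8294 (27.8%), overlapped a site of the untreated 24 hpf stage. Of the 29678 sites of the treated gastrula, 8133 (27.4%) overlapped a 5-somite site. The 28.0% depended on the choice of peaks, and was 58.4% and 52.2% with the 10000 and 20000 strongest peaks per library. As background, the 4 lists merged to 389973 regions, of which 7.59% were atRA gastrula sites and 7.56% were 5-somite sites. Among the 51138 merged sites, 8087 (15.8%) belonged to both groups, 21545 (42.1%) to the treated gastrula only and 21506 (42.1%) to 5 somites only. Few sites lay near the 1 bp limit. Only 104 of the shared 5-somite sites (1.25%) overlapped by less than 50 bp, and 85 of those not shared (0.395%) had a treated-gastrula site within 50 bp.

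The share rested on the shallower atRA library. A peak was present at 70.4% of the 5-somite sites in atRA replicate 1 and at 28.8% in atRA replicate 2. With the peaks of 1 5-somite library taken as its sites, 11.9% of those of replicate 2 were treated-gastrula sites. Both 5-somite libraries held similar parts of the treated-gastrula sites, 43.7% in replicate 1 and 42.9% in replicate 2. Of the 21506 sites called at 5 somites only, 12545 (58.3%) had a peak in atRA replicate 1 alone, 565 in replicate 2 alone, 193 in both without overlap between them, and 8203 (38.1%) in neither. Of the 21545 sites called in the treated gastrula only, 4400 had a peak in 5-somite replicate 1 alone, 4127 in replicate 2 alone, 564 in both without overlap, and 12454 (57.8%) in neither. Most sites called at 5 somites only therefore had some atRA peak, nearly all of them in atRA replicate 1. Fewer of the sites called with atRA only had a 5-somite peak. The list of atRA replicate 1 held 254915 peaks, against 109146 and 116351 at 5 somites. The part of list length in this contrast was not tested.

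The strongest 5-somite sites were nearly all sites of the treated gastrula, and the weakest mostly were not. Sites were ranked by the authors' p, which like their fold enrichment is a value per peak and serves here only to order and describe peaks within a list. Of the 500 strongest 5-somite sites, 98.8% were sites of the treated gastrula. The share was 95.6% for ranks 501 to 1000, 84.4% for 1001 to 2000, 54.1% for 2001 to 5000 and 30.7% for 5001 to 10000. It was 21.0% for ranks 10001 to 20000 and 12.9% beyond. In the untreated gastrula the corresponding shares were 94.4%, 74.6%, 52.7%, 25.7%, 10.8%, 6.43% and 3.56%. At 24 hpf they were 98.8%, 92.0%, 81.9%, 51.7%, 31.7%, 21.2% and 12.8%. The 3 sets of shares use the same 5-somite libraries, and they differ in the depth of the other group and in its number of sites. The treated gastrula had 29678 sites, the 24 hpf stage 25315 and the control gastrula 7918. Of the control gastrula sites, 52.8% were treated-gastrula sites and 45.5% were 5-somite sites. The part of site number in the lower control shares was not tested. The strongest sites include regions called in all 20 libraries whatever the antibody, which 372 shared sites held. The 4 best-ranked shared sites were of this kind. Shares by rank were not computed without such regions, so those of the top ranks cannot be read as binding by Raraa alone.

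**Figure D1:**
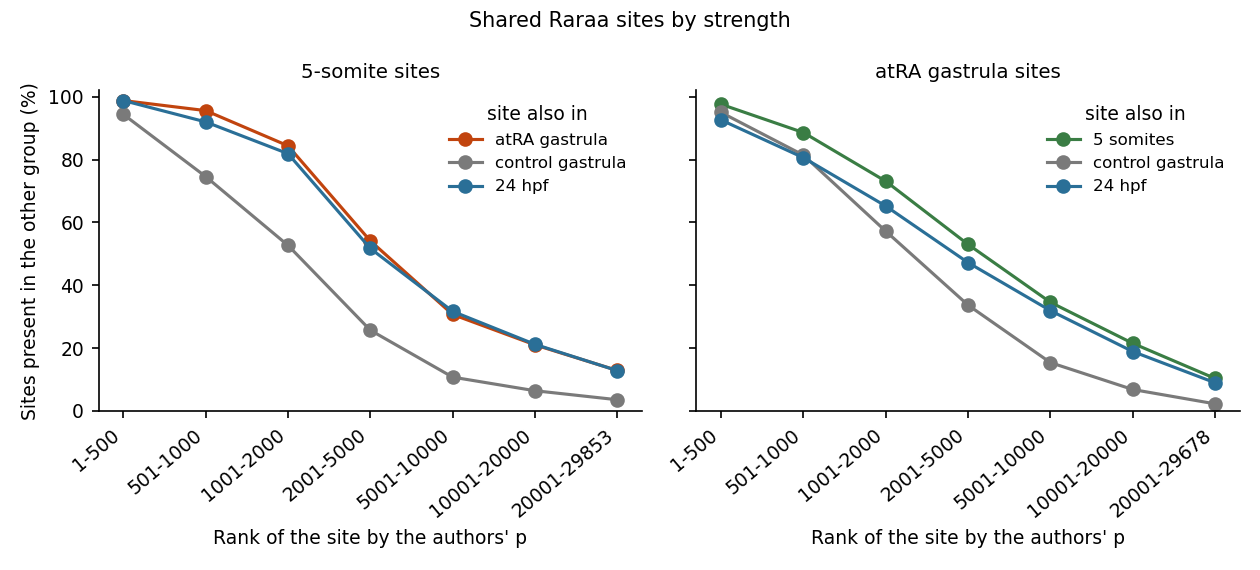
Percentage of 5-somite sites (left) and of atRA gastrula sites (right) that were also sites of each other Raraa group, by rank of the site by the authors' p. The share of 5-somite sites found in the treated gastrula went from 98.8% in the first 500 to 12.9% in the last ranks. It ran close to the 24 hpf line, with the control gastrula below. The control gastrula had 7918 sites, against 29678 in the treated gastrula and 25315 at 24 hpf. Regions called in all 20 libraries are included.

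Read from the other side, the treated gastrula gave a similar picture. Of its 500 strongest sites, 97.6% were 5-somite sites, against 95.0% that were control gastrula sites and 92.6% that were 24 hpf sites. In ranks 2001 to 5000 the shares were 53.0% at 5 somites, 33.7% in the control gastrula and 47.2% at 24 hpf. Beyond rank 20000 they were 10.3%, 2.25% and 8.97%.

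The question of what atRA adds turns on the 5-somite sites that the untreated gastrula does not already hold. Of the 29853 5-somite sites, 13872 had no peak in either control gastrula library, 12293 had a peak in 1 of them and 3688 in both. With no control peak, 1655 sites (11.9%) were sites of the treated gastrula. With a peak in 1 control library it was 3818 sites (31.1%), and with a peak in both 2874 sites (77.9%). Among all 299525 merged regions of the 6 lists without a control gastrula peak, 4.38% were atRA gastrula sites. The sites without a control peak were mostly weak ones, making up 0.600% of the 500 strongest 5-somite sites and 60.2% of those beyond rank 20000.

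The atRA libraries again differed. At the 13872 sites without a control peak, atRA replicate 1 had a peak at 55.6% and replicate 2 at 13.7%. The share that were treated-gastrula sites was 20.5% when control replicate 2 was left out, and 5.26% and 6.07% with the peaks of 5-somite replicate 2 or 1 alone. No atRA peak was present at 41.8% of them, at 18.8% of the sites with 1 control peak and at 2.39% of those with peaks in both control libraries. The 24 hpf sites without a control gastrula peak gave 13.3% that were sites of the treated gastrula, beside the 11.9% of 5-somite sites. In reverse, 13308 sites of the treated gastrula had no control peak, and 11.3% of these were 5-somite sites and 10.5% were 24 hpf sites. The later stages thus stood at close values, and their difference was not tested.

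Many shared sites had a peak in the untreated gastrula as well, chiefly in its deeper library. Of the 8347 shared 5-somite sites, 2874 (34.4%) had a peak in both control libraries, 3818 (45.7%) in 1 of them and 1655 (19.8%) in neither. A peak in either control library was thus present at 80.2% of the shared sites, beside 53.5% of all 5-somite sites. Counted whether or not the other control library had a peak, control replicate 2 had one at 76.9% of the shared and 50.9% of all. Control replicate 1 had one at 37.7% and 15.0%. A peak in control replicate 2 and none in replicate 1 was present at 42.5% of the shared sites. Sites held before and after were mostly held with atRA. Of 3675 5-somite sites that were also control gastrula sites, 2891 (78.7%) were sites of the treated gastrula, beside 28.0% of all 5-somite sites. No atRA peak was present at 90 (2.45%). Requiring peaks in both control and both 5-somite libraries by itself favours strong sites. The part of strength in the 78.7% was not tested.

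In single libraries, whether the treated gastrula stood clear of the control depended on how peaks were chosen. With each list reduced to its 23920 strongest peaks (the size of the smallest), a peak was present at 28.8% of the 5-somite sites in atRA replicate 1, 19.3% in atRA replicate 2, 15.0% in control replicate 1 and 20.9% in control replicate 2. The groups overlapped, since atRA replicate 2 lay below control replicate 2. The means were 24.0% ± 6.73 with atRA and 17.95% ± 4.15 without (SD, n = 2 each), a difference of 6.08 percentage points (exact permutation test, two-sided, p = 0.667, where the smallest possible p is 0.333). With all deposited peaks the values were 70.4%, 28.8%, 15.0% and 50.9%, and the difference was 16.7 points (exact permutation p = 0.667). In both settings the order of the 4 libraries was the order of their background.

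When the pileups were thinned to equal background, both atRA libraries lay above both control libraries. Thinning did not make the lists equally long. They then held 16893 and 26252 peaks with atRA and 20543 and 34382 in the control gastrula. The 5-somite lists held 59315 and 90054. A peak among the 16893 strongest left was then present at 22.3% of 16776 5-somite sites in each atRA library, and at 18.0% and 17.9% in control replicates 1 and 2. The difference was 4.38 points, larger than the spread between replicates (exact permutation p = 0.333, the smallest possible). The groups also separated with the 10000 strongest peaks, at 18.7% and 13.6% against 9.57% and 12.8%. They did so too at a q of at most 1e-05, with the 3621 strongest peaks per library, the size of the smallest such list. Over the 6184 5-somite sites at that q, the values were 34.8% and 28.7% against 22.0% and 25.6%. These differences were 4.99 and 8.005 points (exact permutation p = 0.333 each). In some other settings the groups overlapped, with atRA replicate 2 below control replicate 2. A peak was present at 19.7% and 21.4% of sites with a larger required overlap, and at 14.4% and 15.5% with summits within 100 bp. It was present at 19.1% and 20.7% without chromosome 4, and at 18.1% and 19.8% without regions called in all 20 libraries. At a −log10 p of at least 5 without thinning the values were 22.4% and 22.5% (exact permutation p = 0.667 in each setting). With 23920 peaks per library the difference was 1.32 points without atRA replicate 1 and 10.8 without atRA replicate 2. The difference was 3.15 points without control replicate 1 and 9.01 without control replicate 2. It was 1.87 and 2.59 when the sites were the peaks of 5-somite replicate 2 or 1 alone.

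**Figure D2:**
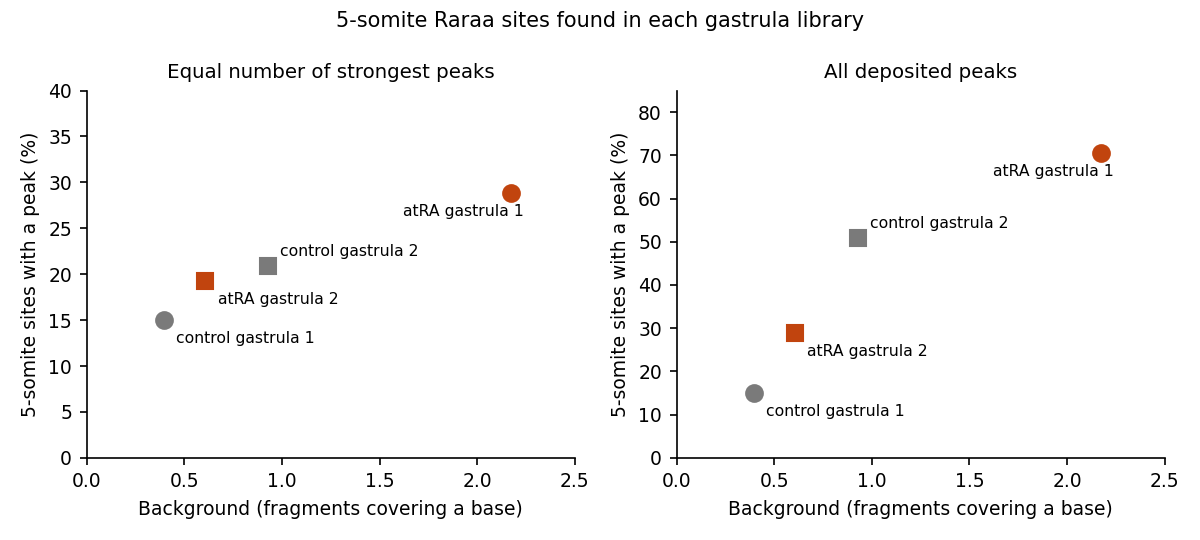
Percentage of the 29853 5-somite sites that held a peak in each gastrula library, against that library's background, with the 23920 strongest peaks per library (left) and with all deposited peaks (right). Points are single libraries, circles replicate 1 and squares replicate 2, and in both panels, neither of which is thinned, the share follows the order of the background.

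Within the strongest 5-somite sites the groups did separate. At the 1000 strongest, with the same 23920 peaks per library, a peak was present at 99.6% and 94.3% of sites in the atRA libraries and at 85.7% and 88.2% in the control libraries. At ranks 1001 to 5000 the atRA libraries held 69.5% and 48.4% and the control libraries 36.2% and 45.1%. The differences of means were 10 and 18.3 points, each with an exact permutation p of 0.333, the smallest that this design allows. At ranks 5001 to 10000 the groups overlapped, with 32.4% and 19.6% against 14.0% and 21.9%, as they did in both weaker classes. The 24 hpf libraries held 92.2% and 91.9% of the 1000 strongest and 44.9% and 53.0% of the next 4000. These rank classes were added after the values had been seen.

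The peaks of single libraries were compared pair by pair. Of the 10000 strongest peaks per library, the atRA pair shared 51.7% and the 5-somite pair 33.2%. The 4 pairs between the groups shared 38.5%, 34.1%, 28.3% and 25.5%, with the higher values from atRA replicate 1. The 5-somite pair of replicates thus lay within the range of the pairs between groups. Overlap within groups exceeded that between groups by 10.8 points (exact permutation over 3 splits, one-sided, p = 0.333, the smallest possible). Without atRA replicate 2 the difference was -3.07 points. The pairs of a 5-somite and a control gastrula library shared 22.0% on average (19.4% to 24.2%). Those of a 5-somite and a 24 hpf library shared 26.4% (23.9% to 28.7%). Replicates of these other groups agreed no better, at 20.4% for the control gastrula pair and 25.9% for the 24 hpf pair. Low overlap with either group therefore cannot be told apart from low agreement between its replicates. The atRA libraries shared 27.6% with the control gastrula (23.8% to 31.8%) and 28.2% with 24 hpf (22.5% to 34.0%), ranges that overlapped that with 5 somites. Among the 1000 strongest peaks alone the atRA pair shared 71.1%, the 5-somite pair 72.3% and the pairs between them 55.6% (51.4% to 60.6%), against 57.1% for 5 somites with 24 hpf, 52.7% for atRA with the control gastrula and 51.8% for 5 somites with the control gastrula.

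Shared sites were stronger and wider than those of 1 group. Strength was taken as the rank of the peak within its list, from 0% for the strongest to 100%. Shared sites had a median rank of 2.95% in atRA replicate 1, 16.9% in atRA replicate 2 and 11.6% in each 5-somite library. Sites of the treated gastrula only had 27.5% and 44.6% in its libraries, and sites of 5 somites only 42.8% and 42.2% in theirs. Shared sites without a control gastrula peak lay between, at 9.67% and 37.0% with atRA and 27.05% and 27.7% at 5 somites. Requiring 4 peaks instead of 2 by itself favours strong peaks. A shared region also joins the peaks of 4 libraries instead of 2, which by itself makes it wider. The order of the classes in strength and width is therefore a description. Where a 5-somite-only site had a peak in atRA replicate 1, its median rank there was 30.3%, next to 27.5% for the sites called with atRA only. In atRA replicate 2, where 758 of the 5-somite-only sites had a peak, the medians were 58.9% and 44.6%.

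**Figure D3:**
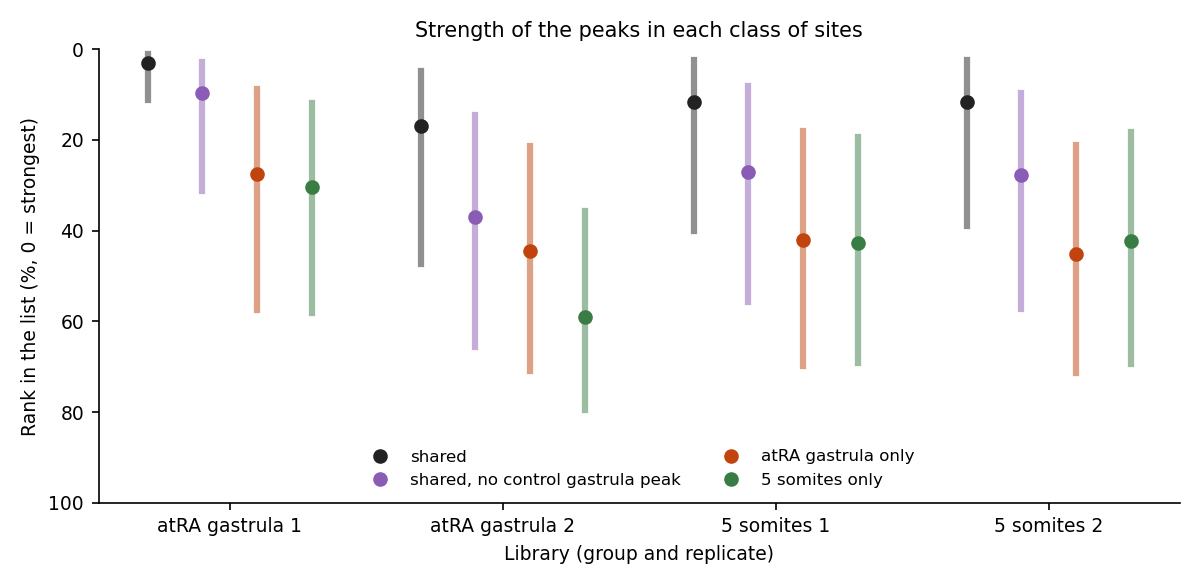
Rank of the peaks of each class of sites within each library (0% is the strongest peak of the list; the axis points downward), over the sites with a peak there, with points for medians and bars from the first to the last quartile limit. Shared sites ranked highest in all 4 libraries, with a median of 2.95% in atRA replicate 1.

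In fragments, the median summit pileup of shared sites was 27 and 10 in the atRA libraries and 11 and 9 at 5 somites. Pileup, the number of fragments over the summit, was solved from the authors' fold enrichment and p. At sites of 5 somites only it was 8 and 6 in the 5-somite libraries, and at those with no atRA peak at all 7 and 6. Sites of the treated gastrula only had 15 and 8. Median widths of the merged regions were 558 bp for shared sites and 453 bp for shared sites without a control peak. They were 330 bp for treated-gastrula-only and 272 bp for 5-somite-only sites. Summits of the groups lay a median of 63 bp apart at shared sites, with quartiles at 22 and 153 bp. Over all overlapping peaks of replicates, a larger set, the median was 63 bp at 5 somites (27 to 120 bp) and 78 bp with atRA (33 to 149 bp).

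The classes differed in how often they overlapped sites of the other groups. By the 1 bp rule a wider region meets peaks of any list more easily, and shared regions were the widest. The part of width in these and the following shares was not tested. At 24 hpf, 56.8% of the shared sites were again Raraa sites, against 17.1% of the 5-somite-only and 12.6% of the treated-gastrula-only sites. Among the 1422 merged shared sites without a control gastrula peak it was 34.5%. Over all 51138 merged sites the share was 21.5%.

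Sox3 with atRA had a site at 76.7% of the shared sites, 41.5% of the treated-gastrula-only sites and 23.4% of the 5-somite-only sites. Over all 51138 merged sites it was 39.4%. For Hoxb1b with atRA the shares were 65.3%, 31.4% and 14.3% (29.6% over all), and for Meis2b with atRA 39.5%, 15.1% and 5.98% (15.1% over all). The treated-gastrula-only sites thus stood near the share over all sites. The 3 other factors had sites together, each with atRA, at 36.4% of the shared, 12.8% of the treated-gastrula-only and 3.78% of the 5-somite-only sites, and at 12.8% of all. None of them had a site at 19.4%, 54.0% and 72.5%, and at 56.3% of all. The factors were profiled at 80% epiboly only, so the treated-gastrula sites come from the same stage and treatment as these libraries and the 5-somite sites do not.

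Without atRA the shares of the 3 other factors were lower in each class by the rule of 2 agreeing replicates. Sox3 control sites were at 57.1% of the shared, 28.4% of the treated-gastrula-only and 18.1% of the 5-somite-only sites. Over all 51138 merged sites it was 28.6%. For Hoxb1b control the shares were 17.8%, 3.82% and 4.50% (6.31% over all), and for Meis2b control 16.7%, 3.88% and 3.78% (5.86% over all). By single libraries this did not hold for Meis2b at 5-somite-only sites, where a peak was present at 12.03% and 19.1% without atRA and at 17.0% and 11.8% with it. Strength moves with these shares as with the classes, and its part in them was not tested. Depth and list length of the Sox3, Hoxb1b and Meis2b libraries were not compared here. Their part in the lower shares without atRA was not tested either.

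**Figure D4:**
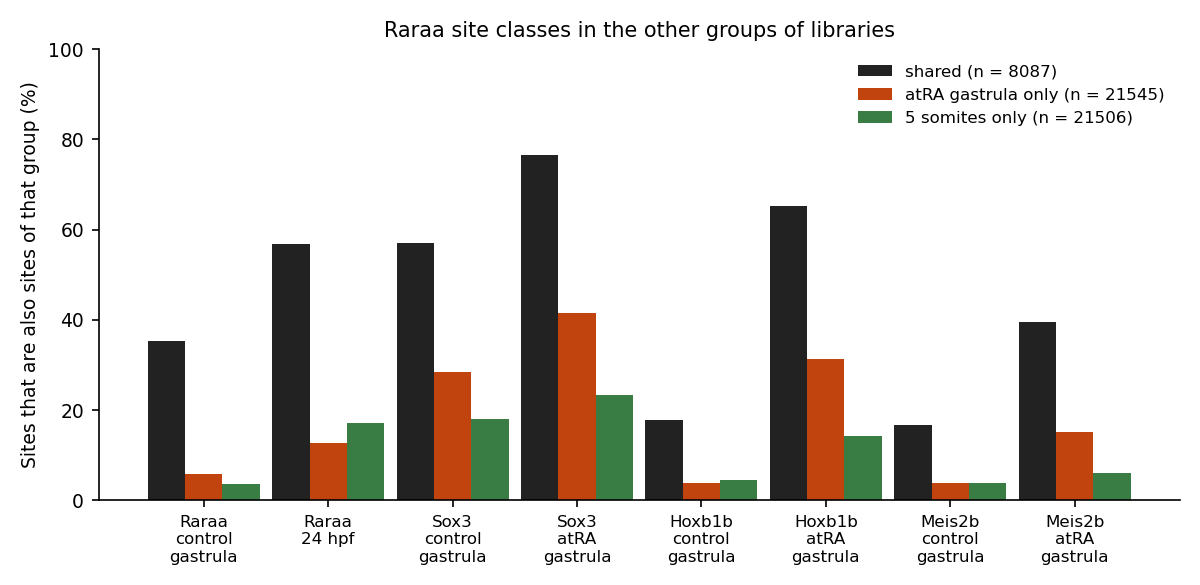
Percentage of shared, atRA-gastrula-only and 5-somite-only Raraa sites that were also sites of each other group of libraries. Shared sites had the highest share in all 8 groups, and Sox3 with atRA the highest bar at 76.7%.

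Some regions were called in every library whatever the antibody. There were 397 regions with a peak in all 20 libraries, and 372 shared sites (4.60%) held such peaks, as they nearly must, since such a region has a peak in all 4 libraries that define the classes. Shared sites had a peak in a median of 8 of the 12 libraries of the other factors, treated-gastrula-only sites in 3 and 5-somite-only sites in 2. Over all 51138 merged sites the median was 3. Without the regions called in all 20 libraries, 26.9% of the 5-somite sites were treated-gastrula sites.

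The 4 best-ranked shared sites belonged to this kind. They lay at chr20:4437640-4438065, chr4:57548151-57548669, chr17:53292579-53292887 and chr5:825997-826752 (GRCz10), and each had a peak in all 8 Raraa libraries and in all 12 libraries of the other factors. At chr20:4437640-4438065 the summit pileup was 216 and 208 fragments with atRA, 211 and 210 at 5 somites, 196 and 255 in the control gastrula and 170 and 217 at 24 hpf. The pileup there hardly followed the background of the libraries. It was the strongest peak of all 8 lists.

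The best-ranked shared sites without a control gastrula peak were more restricted. The site at chr21:17696056-17696804 had 77 and 31 fragments with atRA, 34 and 20 at 5 somites and 29 and 27 at 24 hpf, and neither control list held a peak. The site at chr23:13883531-13884051 had 72 and 24 with atRA, 31 and 20 at 5 somites and 28 and 39 at 24 hpf. The first of these was also called in 8 of the 12 libraries of the other factors and the second in 6.

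At chr11:18498997-18499483 the pileup was 71 and 24 with atRA, 43 and 26 at 5 somites and 49 and 51 at 24 hpf, with a peak in 1 of the 12 libraries of the other factors. At chr7:35269281-35270109 it was 51 and 18, 33 and 26, and 22 and 17 in the same order, with peaks in 7 of the 12. The choice of this set fixed that all 4 sites had peaks in the atRA and 5-somite libraries and none in the control gastrula pair. It did not use the 24 hpf libraries, and both of these held a peak at each of the 4 sites. Over all 1422 merged shared sites without a control gastrula peak, 34.5% were 24 hpf sites.

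Strong sites of the treated gastrula without any 5-somite peak existed. The site at chr18:37322695-37323349 had 87 and 62 fragments with atRA, 20 and 45 in the control gastrula and 17 in 24 hpf replicate 2, and was called in all 12 libraries of the other factors. The site at chr20:33512894-33513609 had 62 and 45 with atRA and 13 in control replicate 2, with no peak at 5 somites or 24 hpf. All 4 sites of this set had a peak in control replicate 2, so none was without a control gastrula peak.

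The remaining pair lay on chromosome 22. At chr22:120003-120452 the pileup was 91 and 60 with atRA, 29 and 25 in the control gastrula and 15 in 24 hpf replicate 2. At chr22:23438664-23439291 it was 57 and 28 with atRA, 20 in control replicate 2 and 9 in 24 hpf replicate 2. These were called in 8 and 10 of the 12 libraries of the other factors.

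The best 5-somite sites without any atRA peak were held by few fragments, in libraries of low background. The authors' fold enrichment at these sites was 8.29 to 10.1, within the 6.25 to 16.3 of the previous set in its atRA libraries. The site at chr1:41773609-41773876 had 14 and 14 fragments at 5 somites and 11 in control replicate 2, and no library of another factor called it. The site at chr21:39860279-39860875 had 13 and 21 at 5 somites and 20 in control replicate 2, and 2 of the 12 libraries of the other factors called it. Both lacked a 24 hpf peak.

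At chr7:14906784-14907072 the pileup was 14 and 11 at 5 somites, 8 in control replicate 2 and 6 and 9 at 24 hpf. At chr6:37184976-37185296 it was 13 and 13 at 5 somites, 9 in control replicate 2 and 9 in 24 hpf replicate 1. The chr7 site had a peak in 4 of the 12 libraries of the other factors and the chr6 site in 2. All 4 sites of this set had a peak in control replicate 2, and their best rank in a 5-somite list was 1192, at the chr21 site. Genes at these regions are not named, since no annotation of this build was used here.

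**Figure D5:**
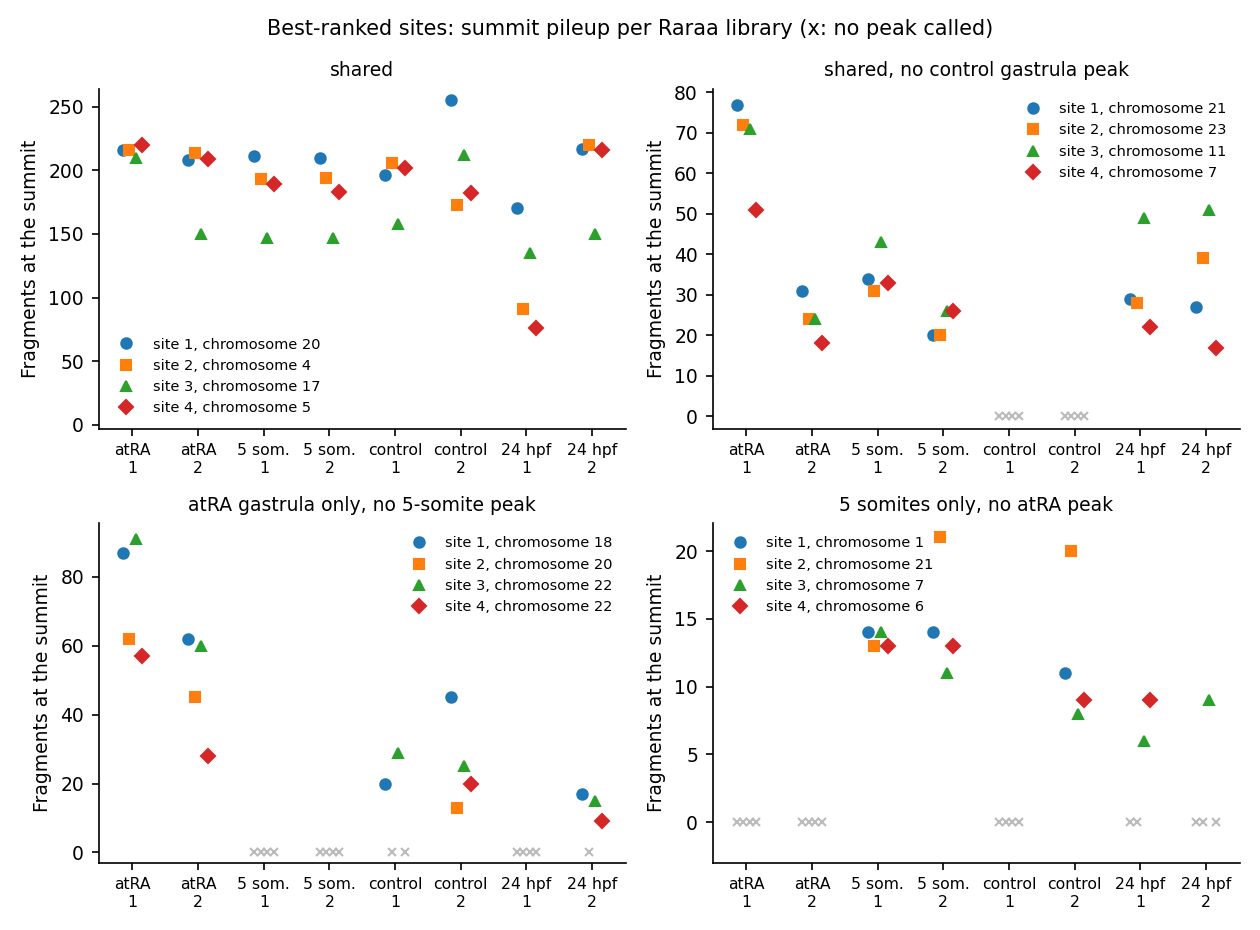
Summit pileup in fragments in each of the 8 Raraa libraries at the 4 best-ranked sites of each set, with grey crosses at 0 where the list holds no peak. In the 5-somite libraries the shared sites without a control peak had 20 to 43 fragments and the 5-somite sites without an atRA peak 11 to 21; the atRA libraries differ in background, so heights are not comparable between libraries.

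Sharing was found on every chromosome. The share of 5-somite sites found in the treated gastrula ran from 23.7% on chromosome 14 to 31.04% on chromosome 2 and 34.2% on chromosome 4, the highest, with a median of 27.8% over the 25 chromosomes. The share of treated-gastrula sites found at 5 somites ran from 23.6% on chromosome 14 to 30.3% on chromosome 2. Differences between chromosomes were not tested.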

How the data were processed

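The deposited data are 1 peak list per library. Bowtie, SAMtools and MACS2 and the build GRCz10 (danRer10) are named in the submitters' processing notes; versions, duplicate handling and input controls are not given in the sources used here. Each peak carries the authors' fold enrichment (a ratio over local background), −log10 p, −log10 q and a display score, deposited at a q of at most 0.05. The labels' protocols give chromatin of about 300 bp.

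Peaks on other sequences (1.97% to 2.56% of the lists of the 8 Raraa libraries) were left out. Summit pileup k and background b were solved from fold, as (k+1)/(b+1), and the Poisson p, for 100% of peaks, to within 0.002 in −log10 p. The lowest backgrounds of a list (0.001 quantile) index its depth. The lists hold no value where no peak was called, so no count model was possible.

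Groups follow the labels. The named sites are the 4 best by mean rank in each of 4 sets, at most 1 per 100 kb. Sets and members were chosen with earlier results of these data known. Tests were exact permutations over libraries. The main tests did not pair libraries by replicate number. At sites called in all 4 libraries, replicate differences correlated at 0.0651 (atRA and 5 somites, 8844 sites) and -0.147 (atRA and control, 4398 sites). These values cannot show whether libraries with the same replicate number shared a clutch or batch. Alternatives were overlap, q, peak number, thinning of pileups to equal background, chromosome 4 and each library left out. Planned counts of genes and motifs were not made, because no genome or annotation of GRCz10 was used here. Recovery of pileups, sites and overlap by the 1 bp rule, and the permutation test of 2 libraries against 2 were tested on simulated data. Thinning and the other overlap rules were not. Python 3.11.15, numpy 2.4.6, pandas 2.3.3 and scipy 1.17.1 were used.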

Additional observations from a re-analysis of the deposited data

How the results depend on the processing

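Depth and the choice of peaks moved the size of the shares. The share of 5-somite sites that were treated-gastrula sites, 28.0%, was 58.4% with the 10000 and 52.2% with the 20000 strongest peaks per library, 15.2% after thinning to equal background, 15.3% with summits within 100 bp, and 11.9% to 70.4% with 1 library left out (70.4% without atRA replicate 2, 11.9% without 5-somite replicate 1). The share of treated-gastrula sites at 5 somites, 27.4%, was 26.5% with overlap of at least 0.5 of the shorter peak, 17.2% with summits, 35.4% at a q of 1e-05, 37.2% and 34.8% with the 10000 and 20000 strongest, 56.2% after thinning, 29.5% at a −log10 p of at least 5 without thinning, 30.6% with equal numbers, 26.4% without regions called in all 20 libraries, and 8.65% to 43.7% with 1 library left out. For 5-somite sites without a control peak, 11.9% became 18.7% at a q of 1e-05, 31.1%, 25.05% and 22.1% with the 10000, 20000 and 23920 strongest, 5.10% after thinning, 6.80% with summits, and 5.26% to 55.6% with 1 library left out. Thinning left 4408 treated-gastrula and 16776 5-somite sites. The difference per library between atRA and control, 6.08 points, stayed positive in every alternative run (1.32 to 16.7) and passed the threshold in none; the design cannot pass it. Leaving out control replicate 1 gave 1.84 with the 59938 peaks of the next smallest list and 3.15 with 23920. The overlap within minus between groups, 10.8 points, was reversed at -3.07 without atRA replicate 2 and otherwise lay between 4.09 and 21.9. With the replicate block the per-library difference was 6.08 (exact sign flips, p = 1, pairs 13.8 and -1.61), and with crossed numbers no call changed; the overlap difference with the replicate block was 11.3 (exact, p = 0.5). Equal numbers, the unthinned p limit, the crossed numbers, the kept peak number and the regions called in all libraries were chosen after seeing the data. Alternatives on genes, gene starts and motifs were not run.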

Other observations

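On sequences outside the 25 chromosomes the treated gastrula had 870 sites, of which 36.0% were shared with 5 somites, and the 5-somite stage had 738, of which 43.5% were shared. The 100-kb window with most shared sites was chr10:16800001-16900000 (GRCz10), with 29 shared sites beside 2 of the treated gastrula only and 7 of 5 somites only, none of the 29 without a control gastrula peak. The median over the 4941 windows with a shared site was 1. For shared sites without a control peak the fullest window, chr13:43300001-43400000, held 4.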
